A study of Mus musculus with 12 samples.

Results

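The comparison is between the stromal cells of 2 single-cell RNA libraries of mouse aorta, the library labelled AS (atherosclerosis) and the library labelled Healthy. Stromal cells were defined by counts alone: a barcode was kept with over 200 genes, over 1000 unique molecular identifiers (UMIs, 1 per captured RNA molecule) and under 10% of UMIs from mitochondrial genes, and with 0 UMIs of each of 7 barring genes (Ptprc, Cd79a, Cd74, Cd3d, Lyz2, Adipoq and S100a8), which mark leukocytes and adipocytes. This left 1912 of 12340 kept barcodes in the library labelled Healthy and 702 of 2201 in AS, together 2614 of the 38072 barcodes that passed the same limits in the 4 libraries of the series, which hold 73666 barcodes as deposited. Within them, a barcode was placed in the endothelial gate with at least 2 UMIs of Pecam1 plus Cdh5, in the fibroblast gate with at least 3 UMIs of Dcn plus Col1a1, and in the smooth muscle gate with at least 2 UMIs of Myh11 plus Cnn1; barcodes that met more than 1 gate were dropped.

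The labels give all mice as ApoE-/-, a genotype that the library labelled Healthy goes against (below). By the methods of the study they were male C57BL/6J animals, 8 weeks old at the start and kept on their diet for 24 weeks. The library labelled Healthy came from mice on a normal diet with saline, and the AS library from mice given saline and a high-fat diet, with 10% fat and cholesterol at 1%. Each library was made from 6 pooled aortas. The other 2 libraries came from mice on the high-fat diet that were given the carbonic anhydrase inhibitor methazolamide (methoxazolamide in the labels), late (MTZ-treated) or from the start (MTZ-preventive), and their levels are set beside some genes below. With 1 library per group no test between the diets was possible, so each difference below is between 2 libraries. The intervals are 95% intervals of counting error only and do not cover the spread between mice. Those of summed counts and their ratios treat each UMI as independent, so they also leave out the spread between cells.

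The wall of the aorta is lined by endothelial cells, which set vessel tone, hold leukocytes off or let them in, and pass lipids. The media is built of smooth muscle cells that contract and lay down elastic fibres, and the adventitia of fibroblasts that make collagen. Atherosclerosis is known for activated endothelium, for smooth muscle cells that give up contractile proteins, and for matrix that is remodelled and can calcify, while the acute phase response raises secreted proteins such as haptoglobin, serum amyloid A and alpha-1-antichymotrypsin, and metallothioneins bind zinc and copper.

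The library labelled Healthy goes against its label in 1 gene. Apoe, the lipoprotein gene that these mice should lack, had 9725 UMIs in the stromal cells of the library labelled Healthy, or 1057 counts per 1000000 UMIs (CPM; 1036 to 1078), against 18 UMIs or 13.4 CPM (7.97 to 21.2) in AS. Apoe stood at 12.3 CPM in MTZ-treated and 9.35 CPM in MTZ-preventive. It was 1635 against 10.1 CPM in the fibroblast gate, 1122 against 20.9 CPM in the endothelial gate and 124 against 6.46 CPM in the smooth muscle gate. After each cell was thinned to 1000 UMIs, Apoe had a UMI in 50.5% of fibroblast-gate cells and 47.6% of endothelial-gate cells of the library labelled Healthy, above the 10.97% of its immune barcodes (defined below), whereas the 10.30% of smooth muscle-gate cells was not. The genotype and the diet therefore cannot be told apart in any difference below, and the words "the library labelled Healthy" are used for that reason. The sex-linked genes matched male mice in both libraries, with 1 UMI of Xist in the library labelled Healthy and 0 in AS.

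The libraries also differed in depth and in which cells were left. The stromal cells held 9202051 UMIs with a median of 3408.5 per cell in the library labelled Healthy and 1338956 with a median of 1358 in AS. The endothelial gate held 252 and 146 cells, the fibroblast gate 598 and 206, and the smooth muscle gate 233 and 60, in this order of libraries, and 385 and 51 stromal cells met more than 1 gate. The barring genes removed different barcodes in each library: Cd74 had a UMI in 68.7% of kept barcodes in the library labelled Healthy, and S100a8 in 42.0% in AS. The gates are cuts of a count and not cell types, and more cells lay at the cut where the counts were shallow: exactly 2 UMIs in 15.1% of the endothelial gate in the library labelled Healthy and 43.8% in AS, exactly 3 in 2.68% and 9.71% of the fibroblast gate, and exactly 2 in 5.58% and 21.7% of the smooth muscle gate. Just outside them, 57 and 106 stromal cells held 1 UMI of the endothelial pair, 24 and 22 held 2 UMIs of the fibroblast pair, and 37 and 40 held 1 UMI of the smooth muscle pair. The gates took 13.2% (11.7 to 14.8), 31.3% (29.2 to 33.4) and 12.2% (10.8 to 13.7) of stromal cells in the library labelled Healthy and 20.8% (17.85 to 23.99), 29.3% (26.0 to 32.9) and 8.55% (6.59 to 10.9) in AS, in the order above, and these shares moved with the barring genes, the gates and the depth. No doublet caller was run. The libraries shared 217 barcodes, 3.14% of those of AS.

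Each gate carried its own markers, in part by the rule, since each set of 8 holds the 2 genes of its gate. With the library labelled Healthy first, the 6 gate genes alone summed to 1717 against 2196 CPM in the endothelial gate. They summed to 21166 against 10657 CPM in the fibroblast gate and 4466 against 2888 CPM in the smooth muscle gate. The 8 endothelial markers summed to 5786 CPM in the endothelial gate of the library labelled Healthy and 5938 CPM in AS, and 8 smooth muscle markers to 47921 and 46184 CPM in the smooth muscle gate. The 8 fibroblast markers summed to 42149 CPM in the fibroblast gate of the library labelled Healthy and 19629 CPM in AS. Markers of other cells moved with the library as well, and their part in the results was not tested. The 8 endothelial markers, all detected, summed to 47.3 against 338 CPM in the fibroblast gate. Of the Schwann cell markers Mbp, Sox10 and Cdh19 the fibroblast gate held 656 UMIs or 248 CPM in the library labelled Healthy and 2 UMIs or 4.05 CPM in AS, where Sox10 and Cdh19 were at 0. The 7 adipocyte markers, with Adipoq at 0 by the rule, summed to 102 against 4681 CPM in the endothelial gate, 17.01 against 827 CPM in the fibroblast gate and 89.9 against 2804 CPM in the smooth muscle gate, with 4 to 6 of them detected in each gate. The 8 neutrophil markers, with S100a8 at 0 by the rule, were at most 1.51 CPM in any gate of the library labelled Healthy and 334, 170 and 103 CPM in the endothelial, fibroblast and smooth muscle gates of AS, with 4, 4 and 2 of 8 detected. The 4 red blood cell markers stood at 20.04 against 186 CPM in the fibroblast gate. For comparison, shares of cells with at least 1 UMI are given below after thinning each cell to 1000 UMIs, beside the share in immune barcodes. These hold at least 3 UMIs of the leukocyte barring genes and none of the gate genes or Adipoq (4330 in the library labelled Healthy, median 2113 UMIs, and 126 in AS, median 1340 UMIs). The immune barcodes may make some of these genes themselves. A share at or below theirs is therefore called not separated from background, and its source was not tested.

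A gene was called past 2-fold where the log2 ratio of its CPM plus 1 was at least 1 in size and the 95% interval of the ratio excluded 1, among genes with a mean of at least 50 CPM over the 2 libraries. Over all stromal cells 118 of 2835 genes (4.16%) were past 2-fold higher in AS and 244 (8.61%) lower. In the endothelial gate 106 of 3028 genes (3.50%) were past 2-fold higher in AS and 186 (6.14%) lower. The fibroblast gate had 95 of 2575 (3.69%) higher and 206 (8.0%) lower, and in the smooth muscle gate 137 of 2598 (5.27%) higher and 199 (7.66%) lower. The median log2 difference over all these genes was −0.07, −0.08 and 0.06. In the smooth muscle gate the split depends on the scaling: with TMM factors 93 genes were higher and 247 lower, and the median was −0.08. A gene can reach 50 CPM through 1 library alone, so counts of listed genes below describe those that reached it. They are to be read beside the shares of all genes given here for the same gate. A list with a count near that share does not stand out from other genes.

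In all 3 gates 9 genes were past 2-fold higher in AS, of 1792 genes that reached 50 CPM in each: Mt1, Mt2, Serpina3n, Hp, Lrg1, Cfd, Lgals3, Pnpla2 and Tmem176a. The promoters of Mt1 and Mt2, neighbouring genes of the metallothioneins, are shown because these genes were higher in every gate. The sequences are RefSeq reference sequence of build GRCm38.p6, plus strand, 250 bases before to 50 after each gene's start, at chr8:94178839-94179138 for Mt1 and chr8:94172368-94172667 for Mt2. Capitals mark TGCACNC and TGCGCNC on either strand (GNGTGCA and GNGCGCA as printed), the core of the element through which metals are known to act on these genes, with overlapping matches allowed.
Mt1: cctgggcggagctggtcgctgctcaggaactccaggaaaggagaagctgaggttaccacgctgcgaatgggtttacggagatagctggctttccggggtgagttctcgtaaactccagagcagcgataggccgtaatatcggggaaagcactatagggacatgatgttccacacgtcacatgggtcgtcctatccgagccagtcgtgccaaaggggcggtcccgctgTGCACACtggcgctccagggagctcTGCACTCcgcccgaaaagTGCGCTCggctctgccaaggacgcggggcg
Mt2: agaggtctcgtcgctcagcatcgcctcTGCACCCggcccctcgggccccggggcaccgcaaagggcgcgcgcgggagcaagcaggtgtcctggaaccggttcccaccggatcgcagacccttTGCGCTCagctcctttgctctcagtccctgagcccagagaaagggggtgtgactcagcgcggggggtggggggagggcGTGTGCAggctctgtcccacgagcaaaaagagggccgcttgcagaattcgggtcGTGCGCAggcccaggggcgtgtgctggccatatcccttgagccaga
The Mt1 promoter held 3 matches and that of Mt2 held 4. Of 32851 promoters of the same length, 25.7% held at least 1 match and 1.97% held at least 3. A match is a run of letters and no measured site.

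Mt1 was the most abundant of the 9 genes. It stood at 344 CPM in the endothelial gate of the library labelled Healthy and 6731 CPM in AS, 19.6-fold higher (17.6 to 21.9). In the fibroblast gate the Mt1 level was 1893 against 13739.9 CPM, 7.26-fold higher (6.998 to 7.53), and in the smooth muscle gate 1510.3 against 9866 CPM, 6.53-fold higher (6.08 to 7.02). Both MTZ libraries lay between for Mt1, MTZ-treated with 1031, 2394 and 1681 CPM and MTZ-preventive with 2424, 9837 and 3414 CPM in the same gates. Mt2 followed the same order: 65.8 against 1228 CPM in the endothelial gate, 400.0 against 2211 CPM in the fibroblast gate and 248 against 1085 CPM in the smooth muscle gate. The difference in Mt1 was not particular to stromal cells. After thinning, Mt1 had a UMI in 15.9% of endothelial-gate cells of the library labelled Healthy and 82.9% in AS, in 66.4% and 91.3% of fibroblast-gate cells, and in 45.9% and 83.3% of smooth muscle-gate cells, while the immune barcodes went from 4.32% to 69.8%. The AS shares of Mt1 were above those of the AS immune barcodes in all 3 gates, and 33 barcodes of AS with at least 3 UMIs of Adipoq held 28860.0 CPM of it.

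Serpina3n, the mouse counterpart of alpha-1-antichymotrypsin, was 2.50 against 146 CPM in the endothelial gate, 47.6 against 1281 CPM in the fibroblast gate and 4.13 against 123 CPM in the smooth muscle gate. In the fibroblast gate the Serpina3n ratio was 26.9 (22.2 to 32.8), and thinned cells with a UMI went from 5.02% to 45.6%, against 10.3% of the immune barcodes of AS. In the other 2 gates the AS shares, 10.96% and 10.0%, were near that of the immune barcodes. Serpina3n was therefore above background in the fibroblast gate, and its level in the other gates was not separated from it. MTZ-preventive held 1315 CPM of Serpina3n in the fibroblast gate, close to AS, and MTZ-treated held 202.

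Cfd and Hp had shares below those of the AS immune barcodes in every gate, and Lrg1 in 2 of them. They were not separated from background there. Cfd (adipsin), a serine protease made by fat cells, was 19.98 against 4188 CPM in the endothelial gate, 7.56 against 692 CPM in the fibroblast gate and 34.1 against 2442 CPM in the smooth muscle gate. Its thinned shares in AS, 39.0%, 24.3% and 23.3%, lay below the 41.3% of the immune barcodes, and the Adipoq barcodes held 63334.6 CPM of Cfd. Hp (haptoglobin), which binds free haemoglobin, was 3.33 against 597 CPM, 6.43 against 1234 CPM and 1.03 against 342 CPM in the same gates, with AS shares of 19.2%, 31.1% and 23.3% against 54.8% in immune barcodes; neutrophils are themselves known to carry haptoglobin. Lrg1, a secreted glycoprotein of inflamed vessels, split between the gates. In the endothelial gate Lrg1 went from 353 to 1833 CPM (5.19-fold, 4.53 to 5.95) and from 16.3% to 66.4% of thinned cells, against 34.9% of the AS immune barcodes. Its AS shares in the fibroblast gate (21.8%) and the smooth muscle gate (21.7%) were below that of the immune barcodes.

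The remaining 3 shared genes were Lgals3, Pnpla2 and Tmem176a. Lgals3 (galectin-3), a sugar-binding protein linked to foam cells and modulated smooth muscle, was 13.3 against 117 CPM in the endothelial gate, 70.7 against 431 CPM in the fibroblast gate and 31.0 against 149 CPM in the smooth muscle gate. Pnpla2, the lipase that starts triglyceride breakdown, was 179 against 451, 24.2 against 78.9 and 416 against 969 CPM. Tmem176a, a membrane protein, was 96.0 against 514 CPM in the fibroblast gate, and its ratios of 2.07 and 2.13 in the endothelial and smooth muscle gates did not stay past 2-fold under 7 and 6 of the alternative settings. Thinned shares were not taken for Lgals3 and Tmem176a, so these were not set against the immune barcodes. The thinned share of Pnpla2 is given below for the endothelial gate alone. Its levels in the fibroblast and smooth muscle gates are not set against the immune barcodes here. Of the shared genes, the plot of thinned shares shows Mt1, Serpina3n, Lrg1, Hp and Cfd, beside Timp1, Prg4 and Selp.

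**Figure D1:**
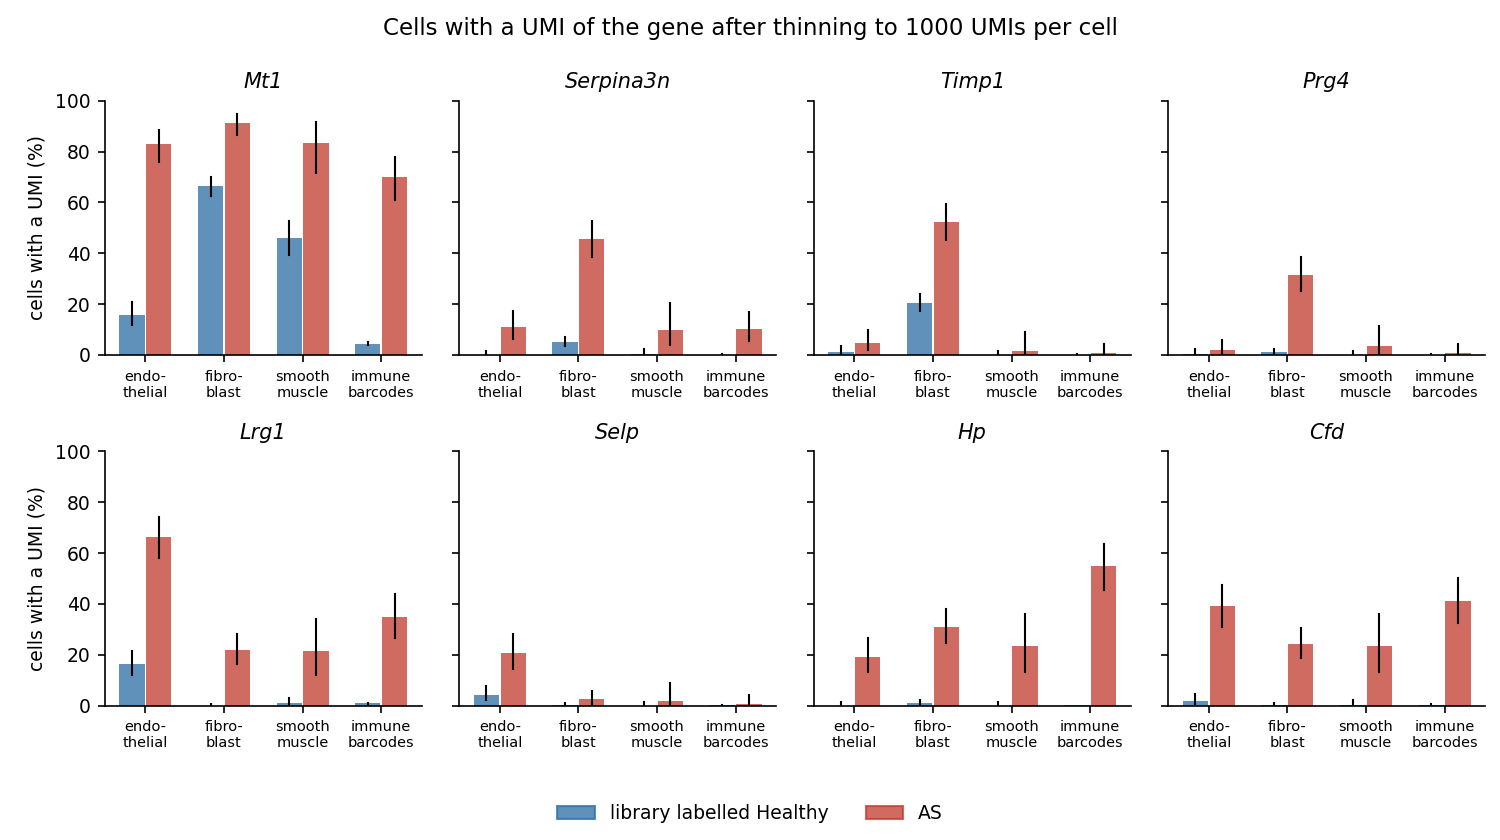
Share of cells (%) with at least 1 UMI after thinning each cell to 1000 UMIs, for 8 genes in the 3 gates and in immune barcodes, with the library labelled Healthy in blue, AS in red and exact 95% binomial limits as black lines. Timp1 and Prg4 are high in the AS fibroblast gate (52.4% and 31.6%) and near 0 in AS immune barcodes (0.794% each), whereas Cfd and Hp are no higher in the AS gates than in the AS immune barcodes.

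Past 2-fold lower in AS in all 3 gates were 11 genes: Apoe, Eln, Sparc, Igfbp5, Dbp, Ephx1, Ccnd2, Irgm1, Pcbp1, Tsc22d1 and Zbtb20. Eln encodes tropoelastin, the protein of the elastic fibre. It was 669 against 242 CPM in the endothelial gate, 1823 against 237 CPM in the fibroblast gate and 1016 against 246 CPM in the smooth muscle gate. Both MTZ libraries were also low for Eln in the fibroblast gate (172 and 92.7 CPM) and in the smooth muscle gate (276 and 264 CPM). Sparc, a collagen-binding matrix protein, was 2967 against 1436, 18578 against 4262 and 2521 against 678 CPM, and Igfbp5, which binds insulin-like growth factors, was 263 against 66.8, 1069 against 216 and 1012 against 278 CPM. Without cells that carried lymphatic markers the Igfbp5 difference in the endothelial gate was no longer past 2-fold, with a log2 of −0.18. Pcbp1 in the fibroblast gate and Tsc22d1 in the endothelial gate were not past 2-fold in 6 and 7 of the 14 alternative settings, and Irgm1 in the smooth muscle gate had a log2 of 0.05 in 1 of them.

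Dbp, an output gene of the circadian clock, was lower in AS in each gate: 281 against 45.9 CPM in the endothelial gate, 411 against 80.9 CPM in the fibroblast gate and 291 against 90.5 CPM in the smooth muscle gate. Of 15 clock genes, a list made after the values of Dbp were seen, 5 or 6 reached 50 CPM in a gate and 2 were past 2-fold lower in each, with none higher. Besides Dbp these were Tef in the endothelial gate (98.2 against 29.2 CPM), another transcription factor of the same family, and Nr1d1, the clock repressor Rev-erb alpha, in the fibroblast gate (240.1 against 80.9 CPM) and the smooth muscle gate (335 against 109.8 CPM). The MTZ libraries held 80.7 and 79.4 CPM of Nr1d1 in the fibroblast gate.

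In the fibroblast gate the genes that differed most were secreted proteins and matrix genes. Of the 14 osteochondrogenic and modulated smooth muscle genes that reached 50 CPM, 9 were past 2-fold higher in AS and 0 lower. Of all genes in the gate 3.69% were higher. The median log2 of the list was 1.45 against −0.08 for all genes. Without barring genes 6 of 11 were higher, thinned 7 of 12, and without each gene's highest cell 6 of 10, with 0 lower in each. Spp1 (osteopontin), an acidic phosphoprotein of bone and of plaque cells, was 16.6 CPM (12.1 to 22.3) in the library labelled Healthy and 9267 CPM (9001 to 9539) in AS. The level rested on few cells, since 29 of 206 AS cells had a UMI of Spp1 and 1 cell held 3104 of the 4581 UMIs. Without the highest cell of each library the log2 difference of Spp1 was 7.79 in place of 9.04. Immune barcodes of AS, among them macrophages, which are known to make Spp1, held 10784 CPM, and 34.9% of them had a UMI after thinning against 10.2% in the fibroblast gate. Spp1 was therefore not separated from background in this gate. MTZ-treated held 1522 CPM of Spp1 and MTZ-preventive 129.8.

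Cartilage and bone genes beside Spp1 came from few cells too. Col2a1, the collagen of cartilage, had 0 UMIs in the library labelled Healthy and 99 UMIs in 10 AS cells, 1 of which held 63, and it was not past 2-fold in 5 of the alternative settings. Ibsp (bone sialoprotein) had 0 and 59 UMIs. Of the AS Spp1 UMIs, 96.4% lay in the 37 cells with at least 2 UMIs summed over Col2a1, Comp, Acan, Chad, Ibsp and Sox9, a count made after the values were seen. That share does not describe all 37 cells, since 1 cell held 3104 of the 4581 Spp1 UMIs. Only 6 AS cells had at least 5 UMIs of Spp1, and 4 of these were among the 37. Comp, a cartilage matrix protein also made by activated fibroblasts, was spread more widely, at 51.8 against 271 CPM (5.23-fold; 4.09 to 6.69) with UMIs in 40 AS cells.

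Other members of that list were higher as well, with the share of cells given for Timp1 alone. Timp1, an inhibitor of matrix metalloproteinases, was 223 CPM (205 to 241) in the library labelled Healthy and 1440.3 CPM (1336 to 1550.1) in AS, 6.47-fold higher (5.79 to 7.23). Its thinned share went from 20.6% to 52.4%, against 0.794% of the AS immune barcodes, and both MTZ libraries were near AS, with 1047 and 1564 CPM of Timp1. Fn1 (fibronectin) was 1849 against 3983 CPM, and Vcam1, an adhesion molecule for leukocytes, 61.2 against 214 CPM. MTZ-preventive was lower than AS for both, with 1759 CPM of Fn1 and 85.3 CPM of Vcam1. Mgp, an inhibitor of calcification, differed little, 4959 against 5709 CPM.

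**Figure D2:**
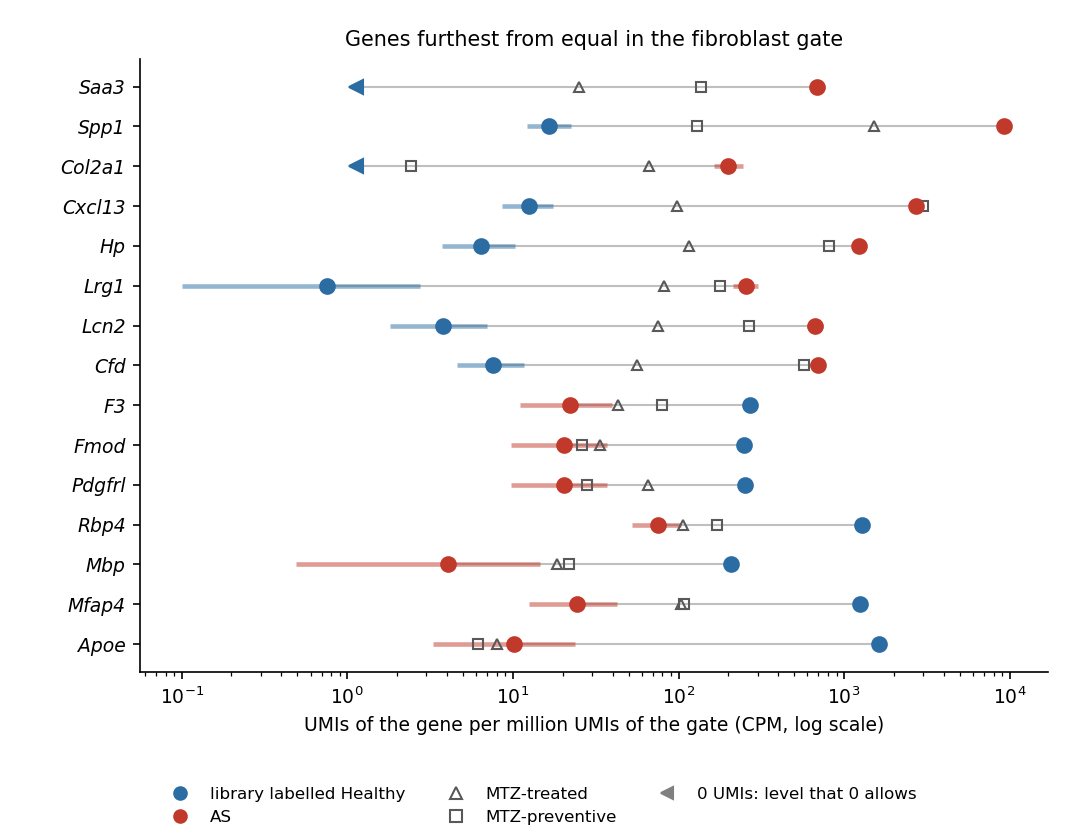
Levels in the fibroblast gate (CPM, log axis) of genes among the 8 furthest higher and the 8 furthest lower in AS, less those not reported, with the library labelled Healthy in blue, AS in red, thick bars for 95% Poisson limits, open triangles for MTZ-treated, open squares for MTZ-preventive and a filled triangle where a library had 0 UMIs. Spp1 runs from 16.6 to 9267 CPM and Mfap4 from 1249 down to 24.3 CPM.

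Several secreted genes were far higher in the AS fibroblast gate. Cxcl13, a chemokine that draws B cells, was 12.5 against 2709 CPM, with UMIs in 32 AS cells. Prg4 (lubricin), a lubricating glycoprotein of joint and serosal surfaces, was 10.96 CPM (7.34 to 15.7) against 712 CPM (639.6 to 790.5), 65.0-fold higher (44.4 to 98.4). Prg4 was in 1.17% of thinned cells of the library labelled Healthy and 31.6% in AS, against 0.794% of AS immune barcodes. Cells with at least 3 UMIs of Cxcl13, Prg4 and Saa3 together numbered 5 of 598 (0.836%) in the library labelled Healthy and 57 of 206 (27.7%) in AS, and made up 8.47% of the gate in MTZ-treated and 36.8% in MTZ-preventive. This count uses the same genes and so restates their difference. The 8 mesothelial markers summed to 176 against 26.3 CPM, and with 1 of 206 AS cells at 2 or more of their UMIs the overlap of the 2 sets could not be read. In MTZ-preventive 14 cells met both conditions, of 816 and 68 that met each. Saa3, a serum amyloid A made in tissues, had 0 UMIs in the library labelled Healthy and 341 in AS, of which 1 cell held 285, and its thinned share of 5.34% was below the 19.8% of AS immune barcodes. Lcn2, an iron-carrier protein of neutrophils and epithelia, was 3.78 against 666 CPM but likewise below the immune barcodes (23.3% against 45.2%).

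In the endothelial gate 8 of the 18 listed acute phase and metallothionein genes reached 50 CPM, 5 of them past 2-fold higher and 2 lower. Those lower were Cp (ceruloplasmin, a copper carrier), 191.5 against 62.6 CPM, and Lbp, which binds bacterial lipopolysaccharide, 224 against 66.8 CPM. Those higher were Mt1, Mt2, C3, Hp and Serpina3n, the last 2 not separated from background in this gate. Without each gene's highest cell 4 of 7 were higher, and C3 was not among them. Of the 18 genes, 10 reached 50 CPM in the fibroblast gate, with 7 past 2-fold higher and 0 lower. Among the higher ones were Hp, Saa3 and Lcn2, which were not separated from background. The complement list had 3 higher of 12: Clu (clusterin, 99.4 against 1019.6 CPM), Cfd and C4b (complement C4, 101 against 504 CPM). C3, the central complement protein, was 906 against 1806 CPM, a ratio of 1.99 (1.84 to 2.15), just short of the line. Serping1, the C1 inhibitor, was 2281 against 2262 CPM. Of 9 chemokine genes, Cxcl13 and Cxcl2 (29.9 against 202 CPM), which draws neutrophils, were higher, and Cxcl10, an interferon-induced chemokine, was lower (187 against 48.6 CPM). Il1r1, the interleukin-1 receptor, was 18.5 against 95.1 CPM and Il33, an alarmin, 42.0 against 93.1 CPM, the 2 genes past 2-fold of 11 on the cytokine and NF-kB list.

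Lipid genes were higher in the AS fibroblast gate in 4 of 7. Fabp4, a fatty acid carrier of capillary endothelium and fat, was 87.3 against 1596 CPM, Cd36, a fatty acid and oxidized lipoprotein receptor, 3.78 against 127 CPM, and Pdk4, a brake on glucose oxidation, 17.4 against 91.0 CPM. Fabp4 had a UMI in 62.6% of thinned AS cells of the gate and in 53.2% of AS immune barcodes, a share near that of the immune barcodes. Cd36 and Pdk4 had a UMI in 13.1% and 9.22% of thinned AS cells of the gate, below the 19.05% and 13.5% of AS immune barcodes. Cd36 and Pdk4 were therefore not separated from background. The other of the 4 genes was Pnpla2, given above, which is not set against the immune barcodes in this gate. The endothelial markers (47.3 against 338 CPM) and the adipocyte markers (17.01 against 827 CPM) were higher in the same gate, and their part in these lipid genes was not tested. Lpl (lipoprotein lipase) was lower, 191 against 78.9 CPM, and turned to 0.70 (log2, higher) when no barring genes were used.

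Matrix genes of the normal adventitia were lower. Of 24 collagen and elastic fibre genes, 12 were past 2-fold lower and 2 higher, with a median log2 of −1.07. Without barring genes 9 of 25 were lower and 2 higher, with a median of −0.58. Thinned, 9 of 25 were lower and 2 higher, with a median of −0.75. The most abundant fibrillar collagens led by level: Col3a1 (type III collagen) was 11587 CPM in the library labelled Healthy and 3597 CPM in AS, 3.22-fold lower (3.07 to 3.38), and Col1a2 (type I collagen) 8494 against 2612 CPM, 3.25-fold lower (3.07 to 3.44). Mfap4, a glycoprotein of elastic microfibrils, was 1249 CPM (1207 to 1292) against 24.3 CPM (12.5 to 42.4), 51.5-fold lower (29.4 to 99.7), and UMIs were found in 295 of 598 cells of the library labelled Healthy and 8 of 206 in AS. Both MTZ libraries were low for Mfap4 as well, 104 and 107 CPM. Outside the list, Fmod (fibromodulin), which binds collagen fibrils, was 249 against 20.2 CPM. The 2 higher members were Thbs1 (thrombospondin-1, 21.5 against 339.9 CPM) and Col8a1, a short-chain collagen (38.2 against 176 CPM).

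**Figure D3:**
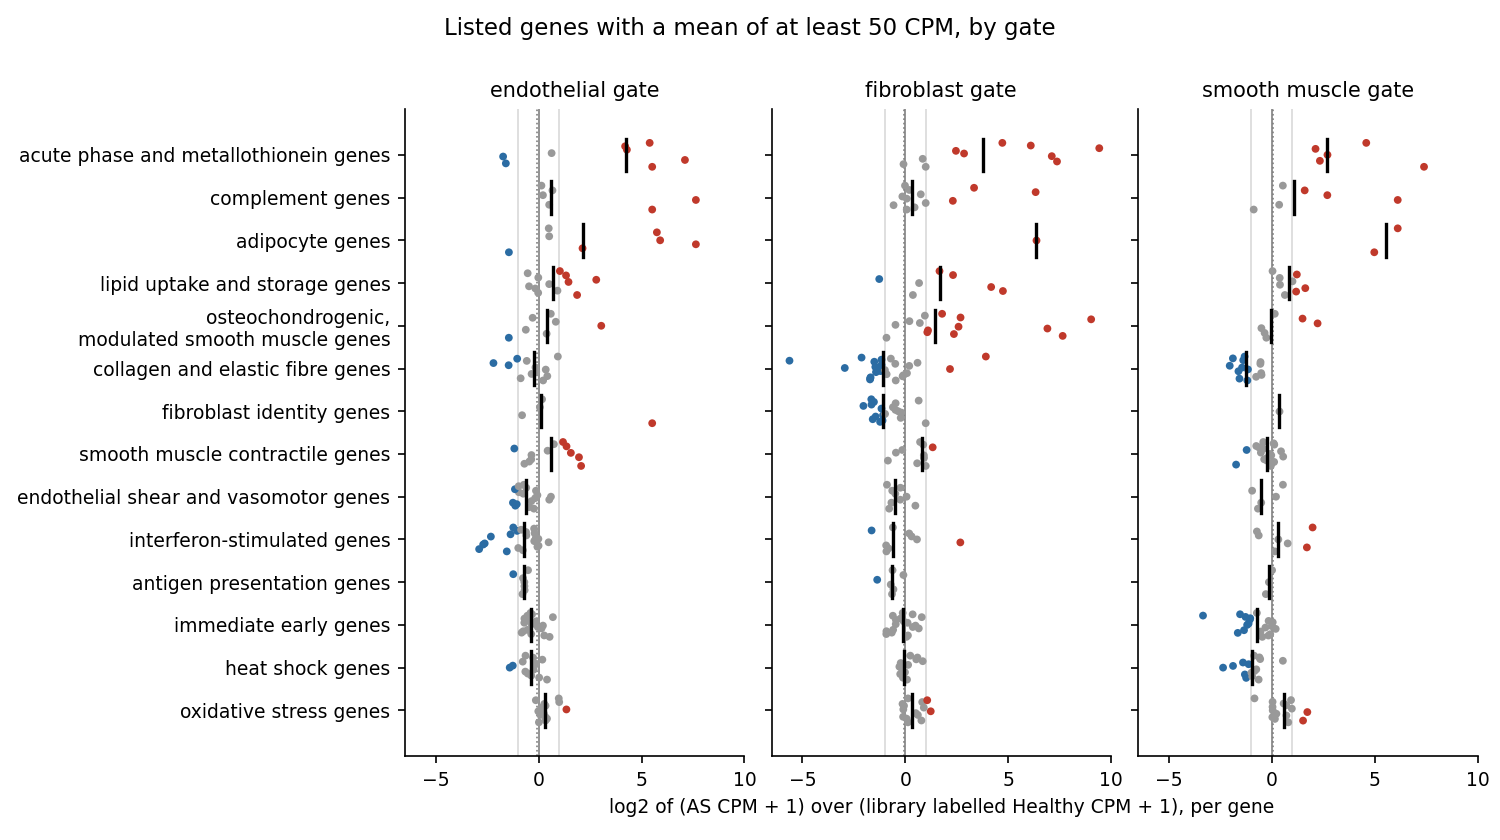
Log2 difference (AS minus the library labelled Healthy, of CPM plus 1) of each listed gene that reached 50 CPM, by gene list and gate, with genes past 2-fold in red (higher) or blue (lower), other genes in grey, black bars for list medians and a dotted line for the median of all genes. The median of the collagen and elastic fibre list lies below the dotted line in the fibroblast and smooth muscle gates (−1.07 and −1.26), with 2 of its genes past 2-fold higher in the fibroblast gate. The median of the acute phase and metallothionein list lies above the dotted line in the endothelial, fibroblast and smooth muscle gates (4.24, 3.79 and 2.71), with 2 genes of that list past 2-fold lower in the endothelial gate. Among its higher genes Hp was not separated from background in any gate. The same held for Serpina3n outside the fibroblast gate, and for Saa3 and Lcn2 in the fibroblast gate.

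Genes that name adventitial fibroblasts were lower as well: 10 of 19 were past 2-fold lower and 0 higher, with a median log2 of −1.08. Without barring genes 7 of 19 were lower and 1 higher (median −0.84), and thinned 7 of 19 were lower and 0 higher (median −0.72). Clec3b (tetranectin) was 5607 against 1873 CPM, Pi16, a peptidase inhibitor of stem-like fibroblasts, 2449.7 against 785 CPM, Penk (proenkephalin) 401 against 97.1 CPM and Gsn (gelsolin), which severs actin, 10925 against 5167 CPM. Pdgfra, the growth factor receptor of fibroblasts, was 151 against 99.1 CPM and not past 2-fold. In summed counts, fewer cells of one kind of fibroblast and less RNA per cell cannot be told apart. Rbp4, the plasma carrier of retinol, was 1279 against 74.8 CPM, F3 (tissue factor), which starts coagulation, 269 against 22.3 CPM, and Pdgfrl, a receptor-like protein, 253 against 20.2 CPM.

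Growth factor genes were mixed in this gate. Of 14 TGF-beta and BMP response genes 4 were higher and 2 lower. Ltbp2, a latent TGF-beta binding protein, was 101 against 388 CPM and higher, whereas Tgfbi, a TGF-beta-induced matrix protein, was 564 against 72.8 CPM and Bmp4, a bone morphogenetic protein, 108 against 16.2 CPM. Of 10 metalloproteinase and inhibitor genes Timp1 alone was higher and 4 were lower, among them Adamts2, the protease that trims procollagen (463 against 117 CPM) and Timp2 (1869 against 866 CPM). The 18 immediate early genes and the 14 heat shock genes that reached 50 CPM in the fibroblast gate held none past 2-fold, and the 79 ribosomal protein genes none.

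The endothelial adhesion list had 1 gene past 2-fold in the endothelial gate. Selp (P-selectin), which catches rolling leukocytes, was 41.6 CPM (30.9 to 54.9) in the library labelled Healthy and 242 CPM (184 to 313) in AS, 5.82-fold higher (3.92 to 8.67). Its thinned share went from 4.37% to 20.5%, against 0.794% of AS immune barcodes, and both MTZ libraries lay between with 186 and 163 CPM of Selp. Of the other 9 genes on that list that reached 50 CPM, Vcam1 was 77.4 against 117 CPM with a ratio interval that included 1 (0.952 to 2.33), Icam1, another leukocyte adhesion molecule, was 213 against 355 CPM (1.67-fold; 1.29 to 2.14), and Vwf (von Willebrand factor) was 315 against 342 CPM.

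Tmem252, a small membrane protein, was 67.4 against 731 CPM in the endothelial gate (10.8-fold; 8.28 to 14.3), and its thinned share went from 3.97% to 26.0% against 4.76% of AS immune barcodes. Cdkn1a, the cell cycle inhibitor p21, was 266 against 1236 CPM (4.64-fold; 3.95 to 5.45), in 17.5% and 58.9% of thinned cells, and in 32.5% of AS immune barcodes. Cdkn1a in the fibroblast gate was 191 against 682 CPM, with a thinned AS share of 31.1% that did not exceed that of the immune barcodes. Vegfa, the vascular growth factor, was 31.6 against 188 CPM in the endothelial gate, and Cyp1a1, the enzyme induced through the aryl hydrocarbon receptor, 25.8 against 192 CPM. Fkbp5, known as a glucocorticoid target, was 30.8 against 134 CPM. MTZ-treated was near the library labelled Healthy for Tmem252, Cyp1a1 and Fkbp5 (76.9, 20.8 and 30.0 CPM).

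Genes of lipid handling in the endothelial gate had 5 of 12 past 2-fold higher and 0 lower. Pdk4 was 14.2 against 104 CPM, Acsl1, which activates fatty acids, 23.3 against 87.7 CPM, Lpl 366 against 1002 CPM, Pnpla2 179 against 451 CPM and Scarb1, the receptor for high-density lipoprotein, 182 against 372 CPM. After thinning, Lpl was in 38.4% and Pnpla2 in 32.9% of AS cells of the gate, against 27.8% and 29.4% of AS immune barcodes, so these shares were near those of the immune barcodes. Pdk4 (8.90% against 13.5%) and Acsl1 (7.53% against 13.5%) were below them and not separated from background. The adipocyte markers were 102 against 4681 CPM in this gate, their part in these genes was not tested, and the 33 Adipoq barcodes of AS held 1599 CPM of Lpl and 3033 CPM of Pnpla2. The Scarb1 ratio of 2.05 (1.58 to 2.63) was not past 2-fold in 6 of the alternative settings. Cd36 was 1079.9 against 2033 CPM (1.88-fold; 1.69 to 2.09) and Fabp4 16791 against 14998 CPM, so the most abundant lipid carriers of these cells were not past 2-fold. Car4, a membrane carbonic anhydrase of capillary endothelium, the enzyme class that methazolamide inhibits, was 259.8 against 814 CPM, with 95.8 CPM in MTZ-treated and 296 CPM in MTZ-preventive, and it was not past 2-fold when cells were thinned or weighted equally. Abca1, which exports cholesterol, was 55.8 against 121 CPM, the 1 gene past 2-fold of 5 on the sterol efflux list. None of the 19 cholesterol synthesis and LDL receptor genes reached 50 CPM in any gate, and their sums were 241 against 217 CPM in the endothelial gate, 266 against 223 CPM in the fibroblast gate and 348 against 200.3 CPM in the smooth muscle gate.

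**Figure D4:**
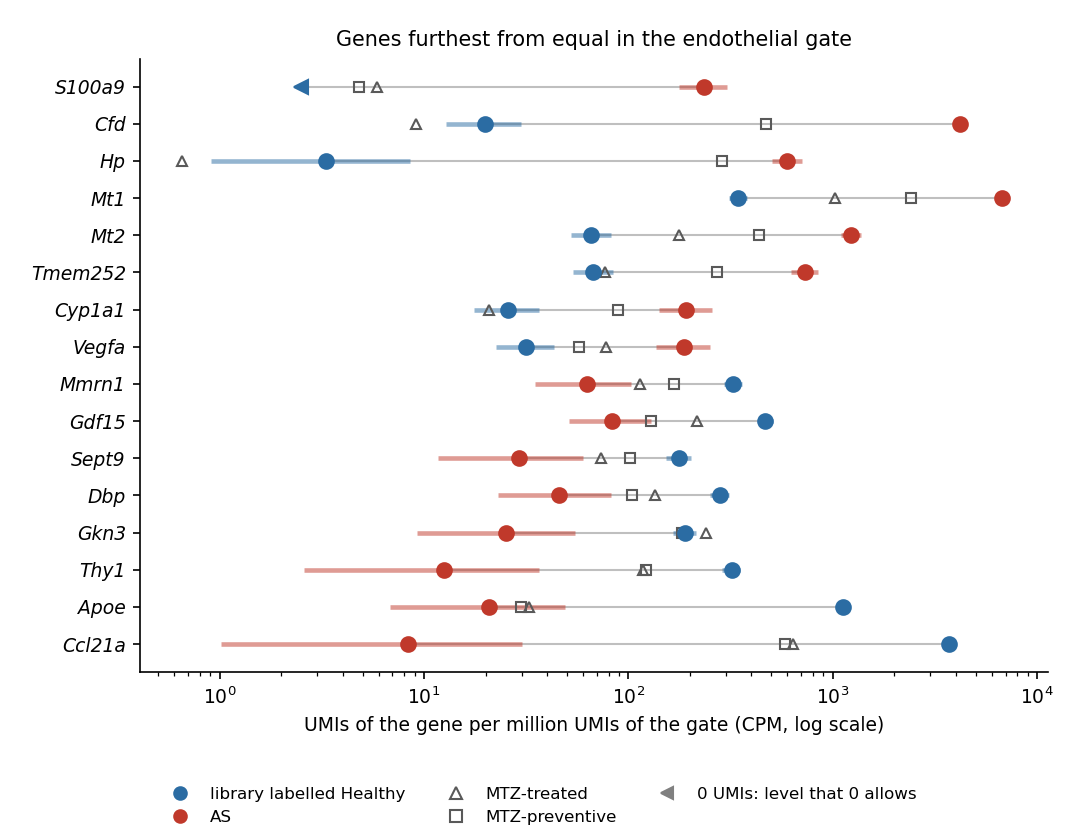
Levels in the endothelial gate (CPM, log axis) of the 8 genes furthest higher and the 8 furthest lower in AS, drawn as in the plot for the fibroblast gate. Mt1 runs from 344 to 6731 CPM, Tmem252 from 67.4 to 731 CPM, and Ccl21a, a lymphatic gene, from 3719 down to 8.35 CPM.

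Interferon-stimulated genes were lower in the AS endothelial gate. Of 22 that reached 50 CPM, 8 were past 2-fold lower and 0 higher, 21 of the 22 had a log2 below 0, and the median was −0.69 against −0.07 for all genes. Irf7, the transcription factor that amplifies the response, was 192 CPM (168 to 219) in the library labelled Healthy and 37.6 CPM (17.2 to 71.3) in AS, 5.12-fold lower (2.65 to 11.3). Ifit1 and Ifit3, antiviral proteins that bind viral RNA, were 114 against 16.7 CPM and 134 against 20.9 CPM, Isg15, a ubiquitin-like modifier, 746 against 288 CPM, and Bst2 (tetherin), which holds budding virus at the surface, 1165 against 397 CPM. Both MTZ libraries were low too, with 46.9 and 75.4 CPM of Irf7. Ifitm3, the most abundant gene of the list, was 4770.0 against 4104 CPM and not past 2-fold. The count lower was 8 to 10 when barring genes were dropped, cells were thinned or the highest cell was left out, with 1 higher in the first of these. In the fibroblast gate 1 of 9 such genes was lower (Isg15, 298 against 95.1 CPM) and 1 higher (Ifitm1, 25.7 against 169.9 CPM), and in the smooth muscle gate 0 of 7 were lower and 2 higher.

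The 7 antigen presentation genes that reached 50 CPM in the endothelial gate all had a log2 below 0, with 1 past 2-fold lower (Tap1, the peptide transporter, which the interferon list also holds, 89.9 against 37.6 CPM). B2m, the light chain of class I molecules, was 1863 against 1077 CPM and H2-K1, a heavy chain, 1912 against 1182 CPM. Cd74 was a barring gene, so cells with class II transcripts were partly removed by the rule. Without barring genes 8 of 10 antigen presentation genes were past 2-fold lower. That setting readmits barcodes with immune RNA, which differed between the libraries. Cd74 had a UMI in 68.7% of kept barcodes in the library labelled Healthy and 18.4% in AS. The part of such RNA in this count was not tested.

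Of 17 shear and vasomotor genes 4 were past 2-fold lower and 0 higher: Cav1 (caveolin-1), which builds the membrane pits of endothelium, was 1249.8 against 568 CPM, its partners Cavin1 526 against 251 CPM and Cavin2 1036 against 434 CPM, and Ptgis (prostacyclin synthase) 84.9 against 37.6 CPM. Klf2, the transcription factor induced by laminar flow, was 1378 against 818 CPM (1.68-fold lower; 1.45 to 1.96) and Nos3, which makes nitric oxide, 147 against 134 CPM with an interval that included 1. Ltbp4 (1029.9 against 259 CPM), a latent TGF-beta binding protein of elastic fibres, Fbln2 (fibulin-2, 329.7 against 71.0 CPM) and Hey1, a Notch target of arteries (117 against 16.7 CPM), were lower as well, the last of these not when cells were thinned. Gkn3, a gene of large-artery endothelium, was 189 against 25.1 CPM, with 240.4 and 183 CPM in the MTZ libraries. Of 9 arterial genes Hey1 was the 1 past 2-fold, and Sox17, another arterial regulator, was 357 against 221 CPM.

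Lymphatic endothelial cells were part of this gate in the library labelled Healthy. The 5 lymphatic markers summed to 4579 against 175 CPM. Ccl21a, the chemokine of lymphatic vessels, had 4467 UMIs in 31 cells of the library labelled Healthy and 2 UMIs in AS, and Prox1, the lymphatic master regulator, was 127 against 8.35 CPM. Without cells that carried lymphatic markers, Ccl21a, Prox1, Mmrn1 and Thy1 were not past 2-fold and Gdf15 turned to a log2 of 0.44 from −2.47. Ccl21a, Prox1 and Mmrn1 are themselves among these markers, so the rule itself lowers their counts. Thy1 and Gdf15 are not among them. Smooth muscle contractile genes were higher in the AS endothelial gate in 5 of 12, with Acta2 at 108 against 455 CPM and Tagln at 243 against 622 CPM, but in 1 of 12 after thinning, when Acta2 had a log2 of 0.03.

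The smooth muscle gate held the fewest cells and its calls were the least stable. Of 137 genes higher and 199 lower, 21 and 28 stayed past 2-fold under all 7 settings of the cells, against 50 of 95 and 88 of 206 in the fibroblast gate and 31 of 106 and 49 of 186 in the endothelial gate. Leaving out cells with lymphatic markers was not among these settings. The 49 include Ccl21a, Thy1, Mmrn1 and Igfbp5, which were not past 2-fold without those cells. Ccl21a and Mmrn1 are themselves lymphatic markers. Among cells that passed this gate the contractile genes were nearly level. The gate itself asks for UMIs of Myh11 or Cnn1, both contractile genes, so cells that had lost them are not counted. Acta2 (smooth muscle actin) was 16419 CPM (16164 to 16676) in the library labelled Healthy and 15894 CPM (15272 to 16535) in AS, Tagln (transgelin) 17425 against 18944 CPM and Myl9, the regulatory myosin light chain, 7332 against 6894 CPM. Of 19 contractile genes 2 were past 2-fold lower, Actg2 (enteric smooth muscle actin, 175 against 51.7 CPM) and Pln (phospholamban, 167 against 71.1 CPM), and 0 higher. Of all genes in the gate 7.66% were lower and 5.27% higher. Pln had a log2 of 0.63 after thinning. Spp1 had 0 UMIs in the library labelled Healthy and 13 in AS. Over all stromal cells 12 of 16 contractile genes were past 2-fold lower in AS and 0 higher, with a median log2 of −1.18. Of all genes there 8.61% were lower. The makeup of the stromal cells also differed, and its part in this was not tested.

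Of 15 oxidative stress genes 2 were past 2-fold higher in this gate, Fth1 and Gpx3, beside 5.27% of all genes. Fth1, the heavy chain of ferritin, was 5626 CPM (5477 to 5777) against 16127 CPM (15500.5 to 16772), 2.87-fold higher (2.73 to 3.01), and 13098 and 11186 CPM in the MTZ libraries. The light chain Ftl1 was 1868 against 2074 CPM, an interval that included 1. Mgst1, a microsomal glutathione transferase, was 25.8 against 349 CPM and Gpx3, the secreted glutathione peroxidase, 40.3 against 136 CPM. Car3 (5.17 against 194 CPM), an adipocyte gene, and Ly6c1 (38.2 against 200.3 CPM), an endothelial gene, were also higher, beside the adipocyte sum given above and endothelial markers at 257 against 342 CPM, whose part in the result was not tested.

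**Figure D5:**
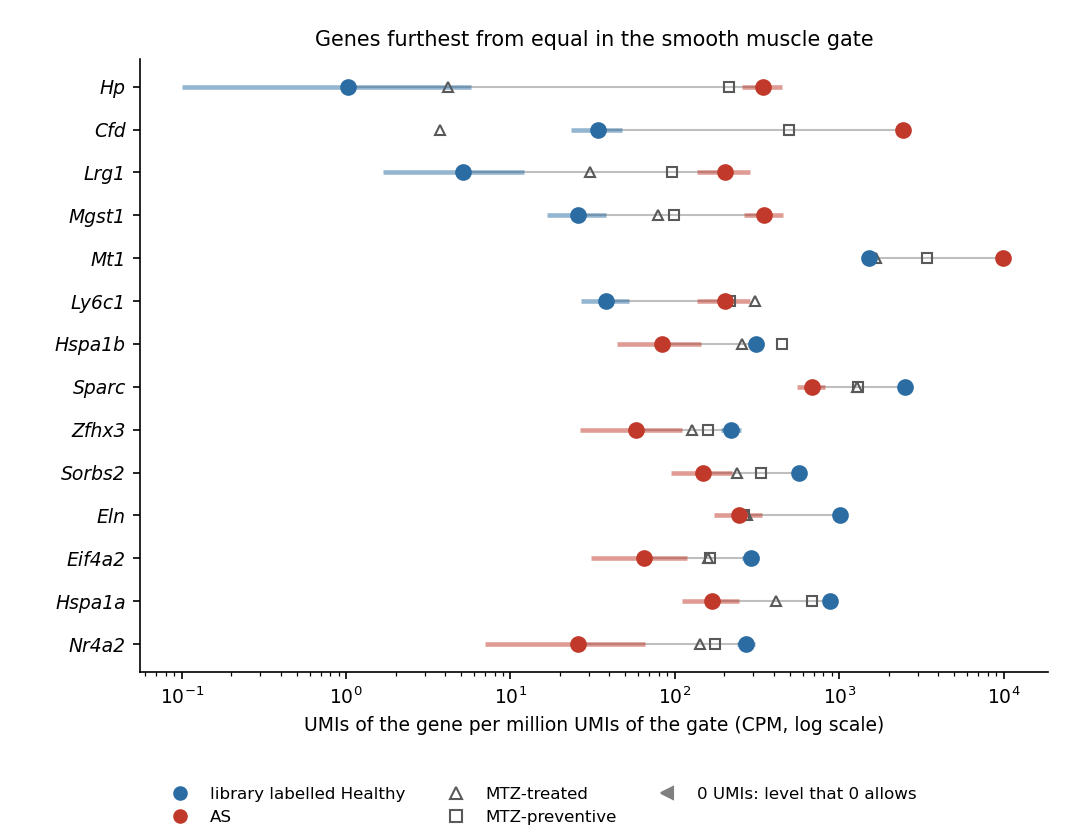
Levels in the smooth muscle gate (CPM, log axis) of genes among the 8 furthest higher and the 8 furthest lower in AS, less those not reported, drawn as in the plot for the fibroblast gate. Mgst1 runs from 25.8 to 349 CPM and Hspa1a from 872 down to 168 CPM. The limits widen as a gene's UMI count falls, and the gate held 154771 UMIs in AS against 968037 in the library labelled Healthy.

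Elastic fibre and collagen genes were lower in smooth muscle too: of 14 that reached 50 CPM all had a log2 below 0, 9 were past 2-fold lower and the median was −1.26. Eln and Sparc are given above; Col1a2 was 232 against 77.5 CPM, Col18a1, the collagen of basement membrane that yields endostatin, 384 against 168 CPM, and Postn (periostin) 154 against 58.2 CPM. Thinned, 13 of 20 were lower and without barring genes 6 of 17. Of 12 TGF-beta and BMP response genes 5 were lower and 0 higher, with Tgfb3, a TGF-beta ligand, at 140.5 against 12.9 CPM and Id2, a target of BMP signals, at 779 against 258 CPM.

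Immediate early genes, which answer a stimulus within minutes, and heat shock genes, which encode chaperones, were lower in the AS smooth muscle gate, 9 of 19 and 6 of 15 past 2-fold and none higher. Nr4a2, an orphan nuclear receptor, was 272 CPM (239.8 to 307) in the library labelled Healthy and 25.8 CPM (7.04 to 66.2) in AS, 10.5-fold lower (4.06 to 38.9). Egr1, a zinc finger factor, was 5127 against 1628 CPM, and Hspa1a, an inducible HSP70, 872 against 168 CPM. After thinning, which also changed the cells in the gate (458 and 59), 1 of 19 was lower and 1 higher with a median log2 of 0.20, and Egr1 had a log2 of −0.29. The cause was not tested. Hspa1a was past 2-fold lower under all 14 settings tried, with log2 values from −2.51 to −1.11. The thinned shares of Hspa1a and Nr4a2 in the smooth muscle gate of the library labelled Healthy, 39.1% and 17.6%, were not above the 40.0% and 19.1% of its immune barcodes, unlike Egr1 (75.5% against 41.5%). Immune barcodes may express these genes themselves, and whether the smooth muscle counts are background was not tested. Hspa1a and Nr4a2 also differed in immune barcodes, at 969 against 83.9 CPM and 344 against 34.3 CPM, and Hspa1a in the endothelial gate (423 against 159 CPM), beside 149 against 134 CPM in the fibroblast gate.

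The methazolamide libraries, which share no mice with the others, sat differently by gate. Of the 206 genes lower in the AS fibroblast gate, both MTZ libraries were nearer AS than the library labelled Healthy for 84 and nearer the library labelled Healthy for 28, and of the 95 higher for 26 and 13. In the endothelial gate the counts ran the other way, with 42 and 78 of the 186 lower genes and 20 and 42 of the 106 higher ones. In the smooth muscle gate they were close, with 65 and 60 of the 199 lower genes and 41 and 47 of the 137 higher ones. All of these comparisons share the AS library and the library labelled Healthy, and the counts are descriptions.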

How the data were processed

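Aortic cells were captured with 10x Genomics 5′ chemistry. Per the file headers and the labels, the authors made the deposited counts, raw UMI counts per gene and barcode, with Cell Ranger 5.0.0 and STAR on mm10. The counts were used as deposited, and 38 gene symbols on more than 1 line were summed. Antigen receptor libraries were not used here.

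UMIs were summed per library and gate and given as counts per 1000000 (CPM). Poisson limits, exact conditional binomial limits of the ratio and Clopper-Pearson limits of a share are at 95%. The log2 ratio used a pseudocount of 1 CPM. Immunoglobulin, T cell receptor, mitochondrial, gate and barring genes and unnamed gene models were not called. A fold against 0 UMIs uses a floor of 3 counts per library. Python 3.11.15, numpy 2.4.6, scipy 1.17.1, pandas 2.3.3 and, for TMM, R 4.3.3 with edgeR 4.0.16 were used. The calls were also run on simulated Poisson counts. These had no spread between cells or mice, so they cannot show how the calls fare under such spread.

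Named genes were the 8 highest and 8 lowest past 2-fold per gate with a mean of at least 100 CPM, the 2 most abundant and the 2 furthest from 0 of each of the gene lists, and listed genes past 2-fold alike in all 3 gates. Some genes that the rule names are not reported here. Other names were chosen after their values were seen. The members and lists were chosen with earlier results of these data known. Alternatives were TMM factors, other totals, a mean over cells, looser limits, no barring genes, stricter gates, thinning, large cells left out, a pseudocount of 5 CPM and floors of 20 and 200 CPM. No column of sample values was left unmapped.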

Additional observations from a re-analysis of the deposited data

Results flagged for a closer look

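The 13 differences below had opposite directions in 2 gates, each past 2-fold. The difference between gates was not tested, and its size is that of the log2 values. Rbp4 differed most, by 6.42: it was 46.5 against 239 CPM in the smooth muscle gate and 1279 against 74.8 CPM in the fibroblast gate, and the former rested on 4 AS cells. Thbs1 differed by 5.24 between the fibroblast gate (21.5 against 339.9 CPM) and the smooth muscle gate (292 against 116 CPM). Serpine2, a protease inhibitor, differed by 4.19 between the fibroblast gate (68.8 against 427 CPM) and the endothelial gate (127 against 41.8 CPM).

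Cxcl10 was higher in the endothelial gate (31.6 against 104 CPM) and lower in the fibroblast gate, a difference of 3.62, and Vwa1, a matrix protein, did the same with a difference of 3.66. Lpl was higher in the endothelial and smooth muscle gates and lower in the fibroblast gate, differences of 2.71 and 2.89. Nsg1 (3.35) and Slc9a3r2 (2.48) were higher in the fibroblast gate and lower in the endothelial gate. Ntrk2 (2.83), Id1 (2.62) and Smad7 (2.59) were higher in the fibroblast gate and lower in the smooth muscle gate, and Fmo2 (2.67) was higher in the smooth muscle gate and lower in the fibroblast gate.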

How the results depend on the processing

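No paired analysis was possible because each group is 1 library. The counts of genes past 2-fold moved most with the floor: with a floor of 20 CPM they were 219 higher and 596 lower in all stromal cells (118 and 244 at 50 CPM), 227 and 391 in the endothelial gate, 231 and 440 in the fibroblast gate and 276 and 310 in the smooth muscle gate, and with 200 CPM they were 32 and 58, 24 and 39, 27 and 62, and 22 and 50. In all stromal cells 258 genes were higher without barring genes and 180 after thinning. In the fibroblast gate 149 were higher after thinning and 173 without large cells, and in the smooth muscle gate 71 without each gene's highest cell, an alternative chosen after seeing the data, as were those that leave out cells with mesothelial, lymphatic or Schwann markers or bar all but Cd74 and S100a8. TMM factors gave 160 higher and 175 lower in all stromal cells, moving the median log2 from −0.11 to 0.04. Thinning gave 146 and 137 in the smooth muscle gate.

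The endothelial share was 9.34%, 6.39%, 11.6% and 6.71% in the library labelled Healthy and 12.7%, 14.9%, 12.96% and 15.9% in AS under looser limits, no barring genes, stricter gates and thinning. The fibroblast share in the library labelled Healthy was 18.1% without barring genes and 24.2% thinned, and in AS 22.8%, 24.4% and 25.9% under looser limits, no barring genes and stricter gates. The smooth muscle share in the library labelled Healthy was 5.82%, 13.96% and 15.5% without barring genes, with stricter gates and thinned, and 5.41% in AS with stricter gates. The log2 of Apoe was −5.57 thinned against −6.19.

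Directions reversed for Gdf15 in the endothelial gate without lymphatic cells (0.44), Lpl in the fibroblast gate without barring genes (0.70), and in the smooth muscle gate for Clu (−0.10), Cox4i2 (0.13) and Pln (0.63) after thinning, Nfkbiz without barring genes (0.093), and Cxcl1 without barring genes (1.13), thinned (1.34) and with all but Cd74 and S100a8 barred (0.82). The cause was not tested. Depth limits the AS library: a count of 0 allows 12.5 CPM in its endothelial gate, 6.07 in the fibroblast gate and 19.4 in the smooth muscle gate.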

Other observations

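Genes of sympathetic neurons, a list made after their values were seen, were present among stromal cells of the library labelled Healthy and nearly missing in AS. The 10 genes summed to 4001 against 89.6 CPM in all stromal cells. That 10 of 10 were past 2-fold lower in AS restates how the list was chosen, beside 8.61% of all genes. Within the endothelial, fibroblast and smooth muscle gates the sums were 59.9 against 62.6, 95.6 against 105 and 46.5 against 64.6 CPM. The number of cells that held these UMIs is not given here, and the source of the difference was not tested. Th, the first enzyme of catecholamine synthesis, had 1924 UMIs against 0, Dbh, which makes noradrenaline, 2346 against 0, Npy, a cotransmitter, 5804 against 14, and Prph, a neuronal filament, 4439 against 6.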
